A study of Mus musculus with 6 samples.

Results

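The genes described here are S100 calcium-binding proteins, lipocalin 2 (Lcn2) and serum amyloid A3 (Saa3), 10 listed symbols in all, matched to the gene symbols of an expression table of 16426 genes. A total of 9 were found, of which 8 reached 1 FPKM (fragments per kilobase of transcript, scaled to the mapped fragments of the library) in enough libraries to be tested. Saa3 stayed below 1 FPKM in every library, and S100a9 was not analysed here because the table used has no row under its symbol or gene number. The cells were 4T1-LM3, a murine mammary carcinoma line, and all of them were cultured in conditioned medium (CM), which carries what donor cells release. In 3 samples the medium came from Tdo2high MFs (matrix fibroblasts rich in tryptophan 2,3-dioxygenase), and in 3 samples it was the control CM, whose source cells the labels do not name. Genotype, time in the medium and the number of separate cultures are not given in the labels. The p-values therefore reflect only how far these samples scattered, and that scatter may be technical.

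S100 proteins are small proteins with EF-hand motifs that mostly work as dimers, binding annexins, myosin or other partners inside the cell when calcium rises. Some are released and then act on receptors: S100a8 pairs with S100a9 as calprotectin, an abundant neutrophil complex that binds Tlr4 and the receptor Ager (RAGE). Lcn2 is a secreted protein that captures iron-loaded siderophores and is made by neutrophils and by stressed or inflamed epithelium. Saa3 belongs to the acute-phase genes, which are switched on by IL-6, IL-1 and TNF through STAT3, C/EBP and NF-kB factors.

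Because S100a8, Lcn2 and Saa3 are textbook targets of these factors, the stretch upstream of their starts is shown. In the 250 bases before the start that a RefSeq promoter table gives for each gene (build GRCm38.p6), 6 motifs were searched on both strands: NF-kB as GGG and TTTCC with any 2 bases between them, C/EBP as TTNNGNAA, AP-1 as TGANTCA, STAT as TTCNNNGAA, the antioxidant response element as TGACNNNGC and the TATA box as TATAAA. RefSeq promoters were held for 9 of the 10 genes, S100a10 being the one without. For Saa3 and S100a13 the start in that table lies inside the gene's full RefSeq span, so another transcript of the gene begins farther upstream. The starts of S100a8, Lcn2 and S100a13 also differ between RefSeq and a second annotation, GENCODE M21. All distances below are to the RefSeq start. The sequences run 5′ to 3′ on the strand of the gene, with matches to the C/EBP letters in capitals. S100a8 (chr3:90668821-90668977, plus strand) and Saa3 (chr7:46715701-46715926, minus strand) are given as far as the first annotated exon of GENCODE M21, and Lcn2 (chr2:32387937-32387966, minus strand) as 30 bases around its match.
S100a8: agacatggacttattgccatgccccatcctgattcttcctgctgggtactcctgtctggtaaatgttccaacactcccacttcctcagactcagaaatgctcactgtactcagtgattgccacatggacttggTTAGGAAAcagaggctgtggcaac
Lcn2: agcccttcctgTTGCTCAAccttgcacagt
Saa3: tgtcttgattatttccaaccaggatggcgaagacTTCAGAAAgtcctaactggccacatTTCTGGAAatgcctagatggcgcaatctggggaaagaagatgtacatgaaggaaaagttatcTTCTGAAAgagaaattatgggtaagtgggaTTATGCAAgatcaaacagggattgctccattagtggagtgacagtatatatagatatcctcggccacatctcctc
S100a8 and Lcn2 had 1 C/EBP match each, S100a9 had 2, Saa3 had 4 and the other 5 windows had none. These letters are loose, and 4 of 9 windows with a match is near the share among all promoters: 36.8% of 32851 promoters held at least 1 match in the same window, and 0.591% held at least 4. The TATA box letters stood 30 to 25 bases before the start of S100a8 and 31 to 26 before that of S100a4 (12.4% of promoters). The TATA box match of S100a8 lies past the stretch shown, which stops 94 bases before the RefSeq start, where a GENCODE exon begins. S100a11 held the AP-1 letters in 2 places (6.75% of promoters held them in at least 1 place, and the share with 2 was not counted). No match to the NF-kB, STAT or antioxidant response letters lay in any of the 9 windows. Among all promoters 1.41%, 7.02% and 10.2% held them, so their lack in 9 windows says little. Other forms of these sites were not searched.

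With Tdo2high CM, S100a8, Lcn2 and S100a13 rose, 3 of 8 tested members, and none fell, where 7.41% of all tested genes were called in either direction, 3.35% higher and 4.06% lower. The test was limma on log2(FPKM + 1), called at an adjusted p under 0.05 (Benjamini-Hochberg) across 10804 genes. The median log2 fold change of the 8 members was 0.14, against -0.01 over all tested genes. In 6 of the 8 the groups did not overlap, with every Tdo2high CM library above every control, as in 11.6% of tested genes (29.2% were separate in either direction). The members and the related lists below were chosen with earlier results of these data known. Their shares beside those of all tested genes are therefore a description only. The members that differed most were the scarce S100a8 and the moderately abundant Lcn2, while the most abundant S100 mRNAs stayed within 1.11-fold by the ratio of means.

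**Figure D1:**
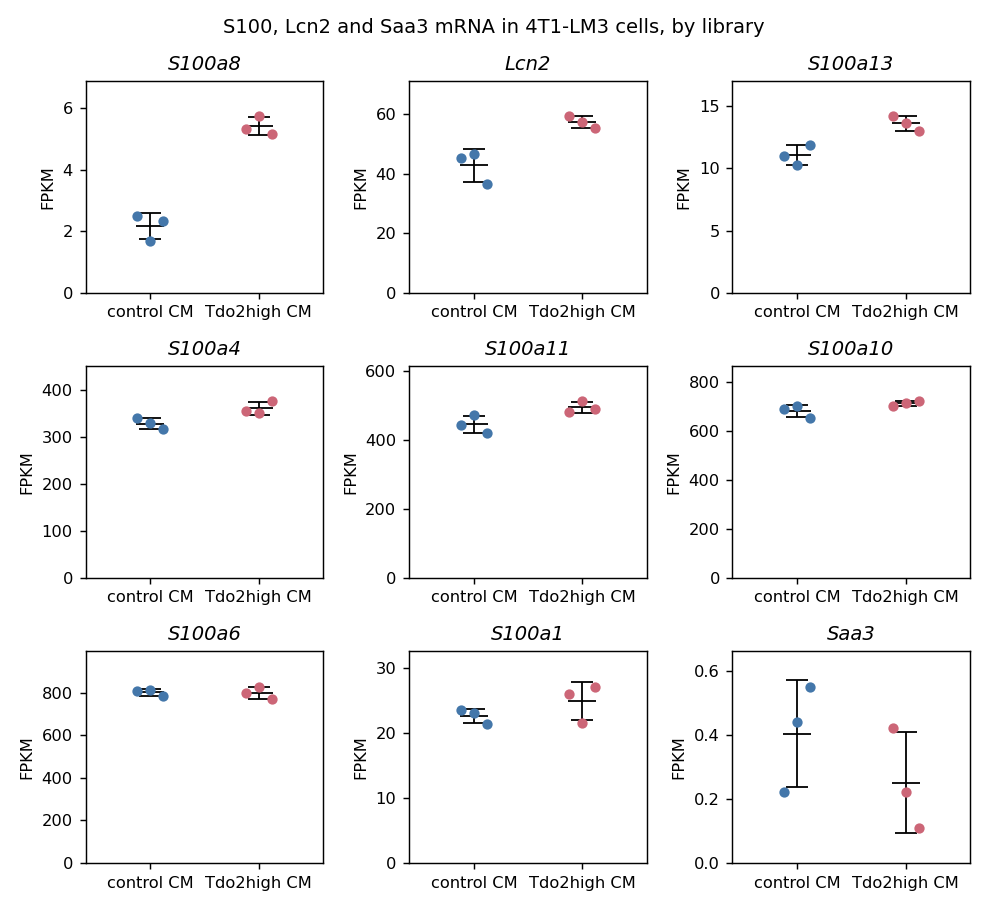
FPKM of the 9 genes in each library (points), with the mean and SD of 3 libraries per group (bars); each vertical axis starts at 0. The groups do not overlap for S100a8, Lcn2, S100a13, S100a4, S100a11 and S100a10, of which S100a8, Lcn2 and S100a13 were called. S100a6 and S100a1 overlap, and Saa3 lies below 1 FPKM throughout.

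S100a8, the partner of S100a9 in calprotectin, had 2.48, 1.69 and 2.33 FPKM in control CM replicates 1 to 3 and 5.32, 5.74 and 5.18 FPKM with Tdo2high CM. Every Tdo2high CM library was thus more than 2 FPKM above the highest control. The means were 2.17 ± 0.420 and 5.41 ± 0.291 FPKM (SD, n = 3 per group), a ratio of 2.5. On the log2(FPKM + 1) scale, which understates changes of weakly expressed genes, the log2 fold change was 1.03 ± 0.09 (SE) with a 95% interval of 0.82 to 1.23 (limma, adjusted p = 0.000192). It was the 8th highest log2 fold change of all tested genes and remained called under all 17 alternative settings. Among these was a filter of 5 FPKM, which only its Tdo2high CM libraries met, so the call under that filter is no added support. The gene lies on chromosome 3 from 90669071 to 90670034.

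The level of S100a8 was low in absolute terms, and few fragments stand behind it. The files give no counts. A rough scale came from 30 genes with a single annotated transcript of 400 to 700 bases and a value above 0 in exactly 1 library, where the value times the length had a median of 56.4 (quartiles 34.3 and 61.2). If such a value stands for 1 fragment, a fragment of the 486-base S100a8 transcript is worth about 0.116 FPKM. At that value the control libraries would hold about 15 to 21 fragments of S100a8 and the Tdo2high CM libraries about 45 to 50. The quartiles put a fragment at 0.0706 to 0.126 FPKM, and at the smaller value all these numbers would be higher. These fragment numbers are rough estimates made after seeing the data, and no test or interval rests on them.

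Lcn2, the siderophore-binding lipocalin, had 45.2, 46.6 and 36.5 FPKM in the control libraries and 59.3, 57.5 and 55.3 FPKM with Tdo2high CM. The groups were separate, and control CM replicate 3 was the lowest. The means were 42.8 ± 5.43 and 57.4 ± 1.98 FPKM (SD, n = 3 per group), with a log2 fold change of 0.42 (95% interval 0.26 to 0.59; limma, adjusted p = 0.0095). It stayed called without any 1 library, between 0.32 and 0.49, but not when the filter on low values was dropped (adjusted p = 0.0661). Lcn2 lies on chromosome 2 from 32384637 to 32387739.

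S100a13, which takes part in the export of Fgf1 and Il1a by a route outside the classical secretory pathway, had 11.03, 10.29 and 11.87 FPKM in controls and 14.19, 13.64 and 13.01 FPKM with Tdo2high CM. The lowest Tdo2high CM library was above the highest control. Its log2 fold change was 0.28 (95% interval 0.16 to 0.40; limma, adjusted p = 0.0154). The call ended without Tdo2high CM replicate 1 (adjusted p = 0.0547) or replicate 2 (0.0527), and without the filter on low values (0.0652). S100a1, a calcium sensor best known from heart and skeletal muscle, begins beside S100a13 on the opposite strand. It had 23.5, 23.0 and 21.3 FPKM in controls and 25.9, 21.6 and 27.1 FPKM with Tdo2high CM. Its groups overlapped and it was not called (log2 fold change 0.13, 95% interval -0.04 to 0.29; adjusted p = 0.329 by limma), except without Tdo2high CM replicate 2 (0.22, adjusted p = 0.0418).

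The RefSeq models of this pair, S100a1 from 90511034 to 90514330 and S100a13 from 90514233 to 90524581 on chromosome 3, overlap at their 5′ ends. The protocol names no strand marking, so it is not known whether reads from the overlap were assigned to the right gene. The ratio of S100a13 to S100a1 was 0.448 to 0.556 in controls and 0.480 to 0.632 with Tdo2high CM. The ranges overlapped and an exact two-sided permutation test gave p = 0.3, so a difference in response between these neighbours was not shown. With 3 samples against 3 such a test cannot go below 0.1.

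S100a6, S100a10, S100a11 and S100a4 made up 98.1% to 98.5% of the FPKM of the 7 S100 members in each library. S100a6 (calcyclin), which binds Cacybp, ranked 67th to 75th of all genes in the table. Its controls had 810, 811 and 783 FPKM and its Tdo2high CM libraries 799, 829 and 772 FPKM. These groups overlapped, and the interval of the log2 fold change ran from -0.08 to 0.08. S100a10, the partner of annexin A2 that does not itself bind calcium, had 691, 702 and 656 FPKM in controls and 705, 715 and 722 FPKM with Tdo2high CM. The groups were separate by less than 3 FPKM, and the log2 fold change of 0.06 did not pass (95% interval -0.01 to 0.14; limma, adjusted p = 0.283).

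S100a11, which binds annexin A1, had 443, 471 and 421 FPKM in controls and 481, 511 and 489 FPKM with Tdo2high CM. S100a4 (metastasin), which binds non-muscle myosin and is known for promoting motility and metastasis, had 339, 329 and 315 FPKM in controls and 355, 349.9 and 375 FPKM with Tdo2high CM. In both genes the groups did not overlap, yet neither passed. The log2 fold change of S100a11 was 0.15 (95% interval 0.06 to 0.25; limma, adjusted p = 0.0612) and that of S100a4 was 0.13 (0.05 to 0.22; adjusted p = 0.0549). S100a11 was called on the TPM scale (0.0472), with a replicate block (0.0452) and without control CM replicate 2 (0.0211), and S100a4 under median-of-ratios scaling (0.0371) and with a filter of 5 FPKM (0.0455). Summed over the 7 S100 members, FPKM was 2211 to 2347 in controls and 2385 to 2446 with Tdo2high CM, with p = 0.1 by the exact two-sided permutation test, the smallest it can give.

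Saa3, an acute-phase serum amyloid, had 0.22, 0.44 and 0.55 FPKM in controls and 0.42, 0.22 and 0.11 FPKM with Tdo2high CM. The groups overlapped at a level that would be about 1 to 5 fragments a library on the scale above and below the filter, so no test or fold is given. FPKM are scaled by length, so levels can be ordered: S100a6 stood highest, then S100a10, S100a11, S100a4, Lcn2, S100a1, S100a13, S100a8 and Saa3. No 2 neighbours in that order overlapped over the 6 libraries.

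**Figure D2:**
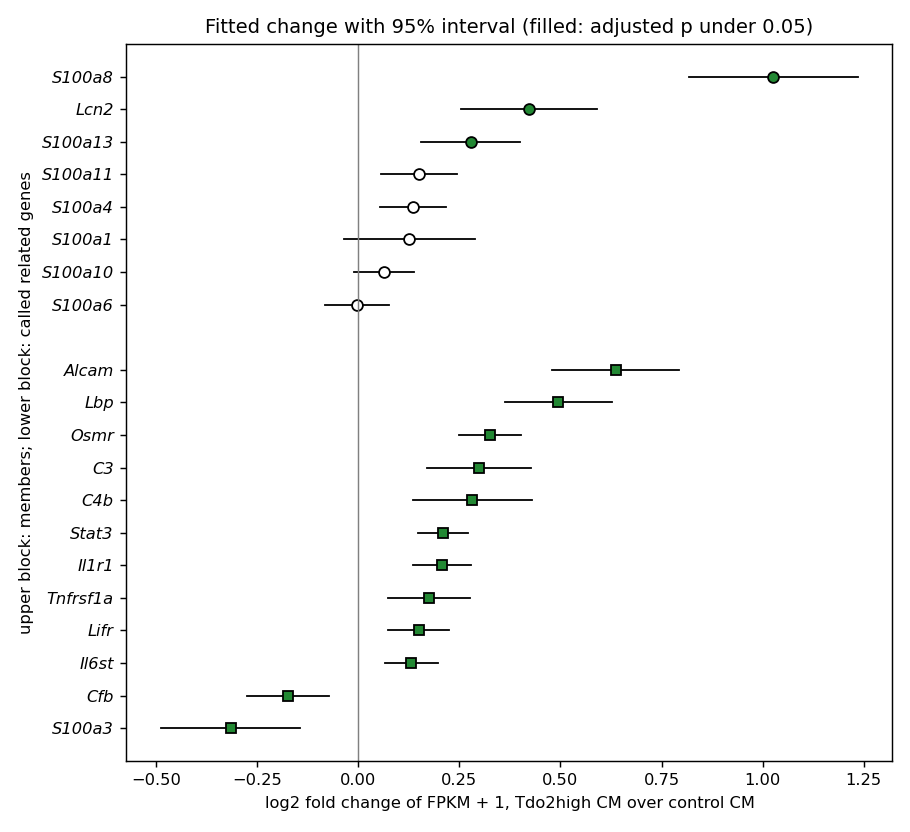
Log2 fold change of FPKM + 1 (Tdo2high CM over control CM) with its 95% interval for the 8 tested members (circles) and for the 12 called genes of the related lists (squares); filled symbols have an adjusted p under 0.05 by limma. S100a8 lies at 1.03, and S100a6 at 0.

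The S100 genes of chromosome 3 showed no uniform level or direction along their array. Between the abundant S100a4 and S100a6 lies S100a5, at 0 to 0.14 FPKM, and S100a14 and S100a16 stayed at or below 0.61 FPKM. S100a3, an S100 protein known from hair cuticle, fell from 2.79 ± 0.222 to 2.05 ± 0.215 FPKM (SD, n = 3 per group; log2 fold change -0.31, limma, adjusted p = 0.0367), a call lost in 7 of 16 alternatives, among them 4 of the 6 fits without 1 library. S100a7a, the next member of the array before S100a8, had 2.62, 1.49 and 2.81 FPKM in controls and 1.53, 1.67 and 1.55 FPKM with Tdo2high CM, and did not pass (-0.33, adjusted p = 0.183). The list of 11 further S100 names held 10 family members and S100pbp, which encodes a protein that binds S100P and is not itself an S100 protein. Of these 11, 8 had values, 5 of them below 1 FPKM in every library. Of the 3 tested, S100a3 was called and S100a7a and S100pbp (0.08, adjusted p = 0.328 by limma) were not, where 4.06% of all tested genes were called lower (median of the 3 -0.31, against -0.01 over all tested genes).

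**Figure D3:**
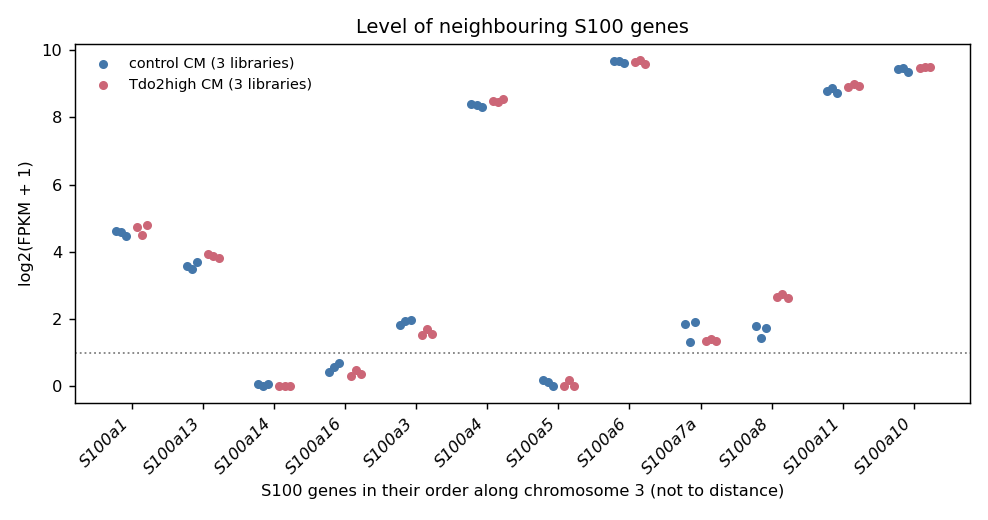
Log2(FPKM + 1) of 12 S100 genes in each library, in their order along chromosome 3 (order only, not distance); the dotted line marks 1 FPKM. S100a8 is higher in the Tdo2high CM libraries while S100a3 is lower, and the abundant S100a4, S100a6, S100a11 and S100a10 stay close between groups.

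Receptors and intracellular partners of S100 proteins were mostly expressed and mostly did not pass. Of 11 listed receptors and co-receptors 8 were tested, of which 1 rose and none fell (median log2 fold change 0.02), a share near the 7.41% of all tested genes called in either direction. The riser was Alcam, an adhesion molecule reported to bind S100 proteins, from 2.25 ± 0.215 to 4.05 ± 0.227 FPKM (SD, n = 3 per group; 0.64, limma, adjusted p = 0.000757). Tlr4, the pattern recognition receptor for calprotectin, had 6.49 ± 0.267 and 7.09 ± 0.0850 FPKM (0.11, adjusted p = 0.200 by limma). The immunoglobulin family receptor Bsg did not pass (-0.01, 95% interval -0.09 to 0.07), and Ager did not exceed 0.47 FPKM. None of the 11 tested among 13 binding partners was called (median 0.0036). Among them were Anxa2, at 464 ± 17.0 and 462 ± 5.38 FPKM (95% interval of the log2 fold change -0.08 to 0.07), and the scaffold Ahnak (-0.09, 95% interval -0.18 to -0.01; adjusted p = 0.181 by limma). Of 5 lipocalin 2 partners, 3 had values and none was tested. The endocytic receptor Lrp2 is listed at 0 in every library, and the protease Mmp9, which Lcn2 binds and stabilises, had 0.49 to 0.81 FPKM in controls and 0.83 to 1.03 with Tdo2high CM.

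Of 30 other acute-phase names 23 had values and 13 of these fell under the filter. Among the 10 tested, 3 rose and 1 fell (median 0.09), where 3.35% of all tested genes were called higher and 4.06% lower. As the list was chosen with earlier results of these data known, this comparison is a description only. Lbp, the lipopolysaccharide-binding protein that hands its ligand to Cd14 and Tlr4, had 4.73, 5.42 and 5.03 FPKM in controls and 7.92, 7.52 and 7.16 FPKM with Tdo2high CM. Its log2 fold change was 0.49 (95% interval 0.36 to 0.63; limma, adjusted p = 0.00117), and the groups were more than 1 FPKM apart. The complement components C3, from 4.25 ± 0.175 to 5.46 ± 0.300 FPKM, and C4b, from 6.81 ± 0.694 to 8.48 ± 0.270 FPKM (SD, n = 3 per group), also rose (limma, adjusted p = 0.014 and 0.0306). Their calls were lost in 4 and 8 of 17 alternatives. C3 kept its call with a filter of 5 FPKM, which only its Tdo2high CM libraries met, so that is no added support. Complement factor B (Cfb), the protease subunit of the alternative pathway, fell from 10.9 ± 0.479 to 9.55 ± 0.232 FPKM (adjusted p = 0.0481 by limma), a call lost in 11 of 17, among them median-of-ratios scaling (0.0619). The serum amyloid genes Saa1 and Saa2 and haptoglobin (Hp) did not exceed 0.19 FPKM in any library, while the haem-binding hemopexin (Hpx), at 1.11 to 2.21 FPKM, was tested and not called. Ceruloplasmin (Cp), an iron-oxidising acute-phase protein, was abundant in both groups at 522 ± 9.77 and 541 ± 3.61 FPKM (0.05, adjusted p = 0.314 by limma).

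Of 33 regulators of the IL-6, IL-1 and C/EBP routes 27 were tested, of which 6 rose and none fell, where 3.35% of all tested genes were called higher and 4.06% lower (median 0.03, against -0.01 over all tested genes). This list too was chosen with earlier results known, so the comparison only describes it. The oncostatin M receptor Osmr rose from 29.2 ± 0.339 to 36.9 ± 1.32 FPKM (0.33, limma, adjusted p = 0.000481), Stat3 from 51.1 ± 0.882 to 59.3 ± 0.502 FPKM (0.21, adjusted p = 0.00181) and the IL-1 receptor Il1r1 from 46.6 ± 1.34 to 53.9 ± 1.10 FPKM (0.21, adjusted p = 0.00471). These 3 calls held without any 1 library. Il6st, the signalling chain shared by IL-6 family receptors (0.13), its partner Lifr (0.15) and the TNF receptor Tnfrsf1a (0.18) rose too, at adjusted p = 0.0256, 0.0256 and 0.0445 by limma, and were lost in 9, 7 and 10 of 17 alternatives. Messenger RNA of the ligand Il6 did not exceed 0.05 FPKM, Osm 0.03 and Il1b 0.16, whereas Lif, the ligand of Lifr, had 5.2 to 5.95 FPKM and was not called (0.05, adjusted p = 0.623 by limma). The C/EBP factors Cebpb (0.01, 95% interval -0.13 to 0.15) and Cebpd (0.02, -0.22 to 0.26) were not called. Nor was Socs3 (0.04, -0.11 to 0.19), a feedback inhibitor of the signalling upstream of STAT3. Nfkbiz, an NF-kB cofactor needed for Lcn2 induction in other cells, had 8, 7.83 and 7.9 FPKM in controls and 9.48, 8.50 and 11.1 FPKM with Tdo2high CM. The groups were separate, but it did not pass (0.26, adjusted p = 0.073 by limma), other than without Tdo2high CM replicate 2 (0.34, adjusted p = 0.0288). The NF-kB subunits Nfkb1 (-0.09, adjusted p = 0.0911 by limma) and Rela (-0.06, adjusted p = 0.247) did not pass either. All their Tdo2high CM libraries were below all controls, as in 17.5% of all tested genes. Of the 27 tested regulators, 8 were separate and higher and 4 separate and lower, where 11.6% and 17.5% of all tested genes were.

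S100a8 and Lcn2 are also neutrophil genes, and in bulk RNA a change in the number of cells of a type cannot be told apart from a change in RNA per cell. Of 15 neutrophil markers 9 had values, and 6 of these stayed below 1 FPKM in every library, including Ly6g (at most 0.07), Elane (0.06), Camp (0.1) and Ltf (0.18). Prtn3, Cxcr2 and Padi4 were tested and none was called. Padi4, a histone-modifying enzyme, was abundant at 507 ± 5.31 FPKM in controls and 539 ± 13.5 with Tdo2high CM (SD, n = 3 per group). The summed FPKM of the list was 506 to 516 in controls and 529 to 556 with Tdo2high CM. Without Padi4, chosen after its values were seen, it was 3.33 to 3.69 in controls and 3.17 to 4.83 with Tdo2high CM. Of 7 macrophage markers with values, 5 stayed below 1 FPKM, among them Lyz2 and Csf1r, and neither Cd68 nor Cd14 passed. Their summed FPKM was 8.09 to 10.4 in controls and 9.95 to 11.5 with Tdo2high CM. Of 10 fibroblast markers with values, 4 stayed below 1 FPKM (Col1a1 at most 0.12). Npnt and Pdgfra rose and Dcn and Fap fell among the 6 tested, and the summed FPKM was 116 to 121 in controls and 128 to 132 with Tdo2high CM. The part of other cell types in these results was not tested. Of 9 listed carcinoma cell markers with values, Krt8, Krt18 and Vim were tested and not called. Vim, at 1274 and 1224 FPKM (control and Tdo2high CM means), is a mesenchymal gene that fibroblasts also express, so it does not mark carcinoma cells. The keratins Krt8 (272 and 277 FPKM) and Krt18 (356 and 378) were abundant. The other 6 stayed below 1 FPKM, among them the epithelial genes Epcam (at most 0.11) and Cdh1 (at most 0.02). The identity of the cells was not tested.

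The 3 genes outside this set whose values were most like those of S100a8 were Lrg1, Gstm1 and Osgin1, by the root mean square difference of log2(FPKM + 1), centred on each gene's mean, over 6 libraries (0.134, 0.149 and 0.152). Lrg1, itself an acute-phase glycoprotein gene, had 2.61, 2.5 and 3.18 FPKM in controls and 5.76, 6.32 and 5.36 FPKM with Tdo2high CM. Its groups were separate, and its level was close to that of S100a8 in each group. The glutathione transferase Gstm1 had 38.9 to 41.9 FPKM in controls and 82.1 to 85.5 with Tdo2high CM, and the oxidative stress gene Osgin1 5.35 to 6.2 and 13.9 to 15.98. The measure favours genes with a like-sized difference between groups, so it is a description only.

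**Figure D4:**
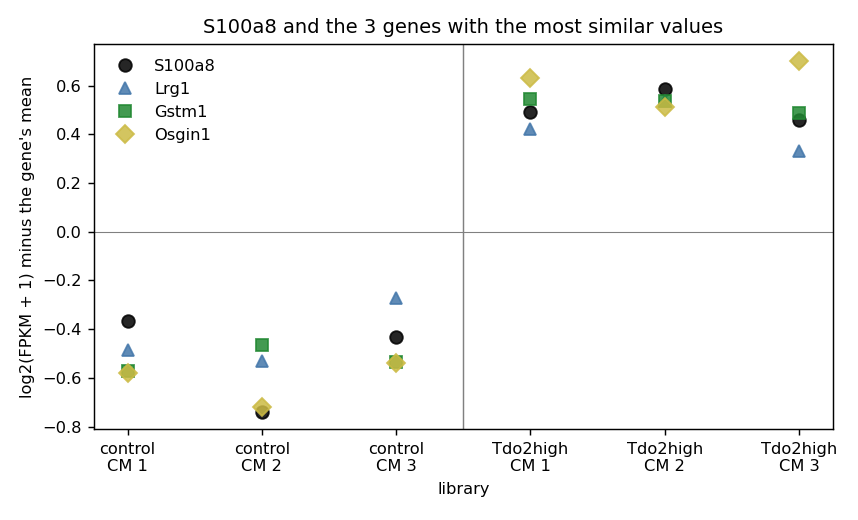
Log2(FPKM + 1) minus the gene's mean over the 6 libraries for S100a8, Lrg1, Gstm1 and Osgin1, by library. All 4 lie below 0 in the 3 control CM libraries and above 0 in the 3 Tdo2high CM libraries.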

How the data were processed

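Polyadenylated RNA of 6 samples was made into randomly primed cDNA libraries and sequenced at BGI, per the labels. The authors deposited FPKM per gene, rounded to 2 decimals, per the file headers. The build was GRCm38, per the submitters' processing notes, and no source used here names the aligner, quantifier or annotation. The libraries' FPKM sums lay between 438603 and 447415, with 10765 to 10791 genes at 1 FPKM or more, and the sequencing depth is unknown. Pearson's r of log2(FPKM + 1) over tested genes was 0.997 to 0.998 within groups and 0.996 between them.

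A gene was tested if 3 or more of the 6 libraries had 1 FPKM or more (10804 of 16426 genes), on log2(FPKM + 1), pseudocount 1, with limma 3.58.1 in R 4.3.3 (intensity trend, no replicate block, Benjamini-Hochberg over all tested genes). The fit was tested on simulated data. It was repeated with other pseudocounts, filters, scalings and variance models, whose effect the closing section gives. Permutation tests used scipy 1.17.1 and figures matplotlib 3.10.9. The members, lists and motifs were chosen with earlier results of these data known. Named genes are all members, every called gene of the related lists, a fixed set of their best-known genes, and the 3 genes most like S100a8. Other genes were named as examples after their values were seen. Sequences and positions are from RefSeq (GRCm38.p6), and transcript lengths and exons from GENCODE M21.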

Additional observations from a re-analysis of the deposited data

How the results depend on the processing

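The test was repeated with other settings and with each library left out in turn. Per-gene values were recomputed for the 8 tested members and 20 named genes of the related lists, and none of those called changed direction. S100a8 ran from 0.91 to 1.30 on the log2 scale and stayed called in all 17 settings. It met the filter of 5 FPKM only through its Tdo2high CM libraries, so that setting is no added support. The count of changed genes was 801 and fell to 394 without a filter, 525 without a variance trend and 29 with a minimum of 1.2-fold, and without 1 library it ran from 395 to 559. Higher genes numbered 199 without a filter and 26 with the fold minimum (209 to 293 without 1 library), and lower genes 195, 277 without the trend and 3 with the fold minimum (186 to 266). Median-of-ratios scaling gave 434 higher and 369 lower, against 362 and 439. Members called higher, 3, became 1 without a filter and 1 with the fold minimum, and ran from 2 to 4 without 1 library. Adjusted p rose to 0.0652 (log2 fold change 0.28) for S100a13 and 0.0661 (0.42) for Lcn2 without a filter, where 16397 genes were tested, and to 1 for both with the fold minimum. Without 1 library S100a13 ran from 0.23 to 0.33 and its call ended in 2 fits, S100a1 from 0.064 to 0.22 and S100a11 from 0.11 to 0.19. S100a4 passed with a filter of 5 FPKM (0.13) and median of ratios (0.15), and S100a11 on the TPM scale (0.14) and with the replicate block (0.15). Related genes called higher, 10, became 6 without a filter or the trend and 0 with the fold minimum (5 to 8 without 1 library). The 2 lower ones became 1 with median of ratios, no trend or the replicate block. The count was also 1 with a filter of 5 FPKM, where S100a3 was too low to be tested. It was 0 without a filter, under quantile normalization or with the fold minimum (0 to 2 without 1 library).

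The replicate numbers gave no sign of pairing: deviations of same-numbered samples from their group means correlated at -0.02, -0.03 and 0.02 across genes. With the replicate block 622 genes were called, 4 members among them. Sequencing depth is unknown, and no interval or limit from counting was given for S100a8 and Saa3.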
